A study of Mus musculus with 15 samples.

Results

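Calcitonin gene-related peptide (CGRP) is a neuropeptide that widens blood vessels and acts on immune cells, and it is known chiefly from sensory nerve fibres. In mice 2 ligand genes were measured here, Calca, which also encodes calcitonin, and Calcb, which encodes the beta form of CGRP. The receptor is a pair of proteins on 1 cell: Calcrl, a G protein-coupled receptor, gives a CGRP receptor when it is joined by the accessory protein RAMP1 and adrenomedullin receptors when it is joined by RAMP2 or RAMP3. The CGRP receptor signals mainly by raising cyclic AMP. Blood vessels, and endothelial cells in particular, are a known site of Calcrl and Ramp2.

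The members were therefore 6 genes (Calcb, Calca, Calcrl, Ramp1, Ramp2 and Ramp3), taken by name with all of their probes. They had 9 probes, of 41174 probes and 18217 named genes on the array. Calcb was chosen by its measured signal, because it differed most clearly between hepatic allografts at POD8 and POD5 (postoperative days 8 and 5), so its values in the liver groups are given as a description without a test. The other 5 genes were added as its sister gene and its receptor genes.

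RNA of mouse grafts was measured on 15 one-colour arrays in 5 groups of 3. Cardiac allografts at POD5 were B10 (C57BL/10, H-2b) hearts placed in the abdomen of CBA (H-2k) recipients. Hepatic allografts at POD5 and at POD8 were B10.BR (BR, H-2k) livers placed orthotopically in B10.D2 (D2, H-2d) recipients. All mice were male. Heart controls and liver controls were labelled as normal tissue but are elsewhere described as syngeneic, their strain is not given, and they are called controls here. The methods point to 3 mice per time point, but the labels number the samples without naming animals. Where samples shared an animal, P-values would measure technical spread. Recipient leucocytes enter an allograft, so each allograft array read a mixture of donor and recipient RNA.

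The tissues matched their labels: the summed linear signal of 6 hepatocyte markers was 444100 to 511300 in the liver arrays and 55.9 to 732.9 in the heart arrays. The 75th percentile of the processed signal was 1021 to 1247 in heart controls, 394.1 to 710.5 in cardiac allografts, 338 to 477.9 and 384 to 454 in hepatic allografts at POD5 and POD8, and 92.14 to 225.8 in liver controls. The dimmest array was liver control 1, on which 52.5% of probes were well above background. The 3 cardiac allografts lay on 1 slide and the 3 heart controls on another, so in the heart an effect of the slide cannot be told apart from that of the group. Hepatic allografts at POD5 shared no slide with those at POD8 or with the liver controls, and heart and liver controls shared none. In these comparisons too, slide and group cannot be told apart. For POD8 against liver controls, 1 slide held 2 POD8 arrays and 2 liver controls.

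The genes lie at 5 places in the GRCm38.p6 annotation of RefSeq. Calca (chr7:114625981-114636910) and Calcb (chr7:114716555-114723368) are neighbours on chromosome 7, Calcrl is at chr2:84330626-84425405, Ramp1 at chr1:91179822-91225196, Ramp2 at chr11:101246334-101248250 and Ramp3 at chr11:6658506-6677478. Which exon each probe reads is not given in the sources used here. Promoter windows from RefSeq (GRCm38.p6, 250 bases before to 50 bases after 1 start site a gene) were held for 4 of the 6 genes, without Calcb and Ramp2. The start site of the window is the outer end of the annotated gene for Ramp1, and lies inside the gene by 27 bases for Ramp3, 139 for Calcrl and 553 for Calca. Those of Calca, Calcrl and Ramp1 are shown because they belong to the second ligand gene and to both parts of the CGRP receptor. The capitals mark TGACG or its reverse complement CGTCA, the short core of a cAMP response element, and the GC box GGGCGG or its reverse complement CCGCCC.
Calca, chr7:114636308-114636607, minus strand: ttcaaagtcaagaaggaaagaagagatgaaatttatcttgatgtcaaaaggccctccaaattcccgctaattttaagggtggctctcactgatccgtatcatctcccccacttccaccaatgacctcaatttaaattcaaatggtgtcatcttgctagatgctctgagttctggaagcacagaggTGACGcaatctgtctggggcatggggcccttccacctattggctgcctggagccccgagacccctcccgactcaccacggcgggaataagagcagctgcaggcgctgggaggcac
Calcrl, chr2:84425217-84425516, minus strand: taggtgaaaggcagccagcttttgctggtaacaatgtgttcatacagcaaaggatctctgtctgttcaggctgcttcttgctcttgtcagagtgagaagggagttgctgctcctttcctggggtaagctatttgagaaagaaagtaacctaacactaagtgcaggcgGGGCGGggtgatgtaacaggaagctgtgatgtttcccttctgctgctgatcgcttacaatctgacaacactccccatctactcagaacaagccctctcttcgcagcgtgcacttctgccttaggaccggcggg
Ramp1, chr1:91179572-91179871, plus strand: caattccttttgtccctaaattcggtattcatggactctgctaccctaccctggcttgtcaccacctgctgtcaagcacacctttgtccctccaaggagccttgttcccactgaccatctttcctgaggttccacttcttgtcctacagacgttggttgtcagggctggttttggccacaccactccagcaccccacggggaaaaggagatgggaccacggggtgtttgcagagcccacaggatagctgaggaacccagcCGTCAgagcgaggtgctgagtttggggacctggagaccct
Counted from the start site of its window, Calca held 1 such core at -65 and Ramp1 held 1 at 10, and 20.8% of 32851 mouse promoters of this length held this core. The Calcrl window held 1 GC box at -83, as did 35.7% of the promoters in either direction. Ramp3 held 3 GC boxes (-78, -35 and -24) and no such core. The full element TGACGTCA, present in 1.79% of promoters, was in none of the 4 windows.

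Signals are given as log2 of the processed signal after quantile normalization over the 15 arrays, and a difference is a difference of such values. A gene is described by its brightest probe unless another is named. "Above background" means that the scanner software marked the spot as well above background. A change was called where the Benjamini-Hochberg adjusted P-value from Limma, over all probes, was under 0.05. In tissue RNA, fewer cells of a type and less RNA per cell cannot be told apart.

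Calcb was above background in all 3 hepatic allografts at POD8 and in no other liver array. Its log2 signals were 6.25, 6.44 and 6.06 at POD8, against 1.27, 1.31 and 2.06 at POD5 and 1.71, 1.50 and 1.36 in the liver controls. The POD8 arrays lay far above the other 6, and the POD5 and control arrays overlapped. On the scanner's own scale the processed signal was 63.9, 76.1 and 73.9 at POD8, 2.26 to 3.24 at POD5 and 1.64 to 2.84 in the controls. Before background subtraction the Calcb spot read 86.5 to 102.5 over a local background of 24.5 to 25 at POD8, and 33 to 38 over 23 to 24 at POD5. The POD8 signal was thus clearly measured but low, and the POD5 signal was not separated from background.

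The difference between POD8 and POD5 was 4.70 ± 0.25 (SE, n = 3 in each group). No slide held arrays of both groups, so slide and day cannot be told apart here. Because Calcb was not above background at POD5, the fold is a lower limit: at least 7.24-fold higher at POD8, taking in each POD5 array the dimmest signal marked as well above background. Against the liver controls the difference was 4.73 ± 0.16, at least 3.78-fold. On the slide that held 2 arrays of each, it was 4.74. The size rests on how background is handled: with normexp correction, which adds a constant of 50 to the signals, the differences became 1.14 from POD5 and 1.25 from the controls. Of 41165 probes, 2 had a larger positive difference from POD5 to POD8 than Calcb, those of Camp and Ngp, which encode granule proteins of neutrophil precursors. Of all probes, 64 were above background on every POD8 array and on no POD5 array.

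In the heart Calcb was near the detection limit. The heart controls read 3.09, 1.35 and 4.05, and 2 of the 3 were above background. The cardiac allografts read 1.65, 1.35 and 1.33, none above background. The groups overlapped through heart control 2, and the difference of -1.39 ± 0.69 was not called (adjusted P = 0.186, Limma). Without heart control 2 it was -2.13 (adjusted P = 0.0205), but its size was not measured, since no cardiac allograft was above background, and no fold is given. The Calcb difference between heart and liver controls was not called and is given no size, because the liver controls were below background and the dimmest signals marked as well above it there (4.09 to 4.56) exceeded the highest heart control. The order of the group means was hepatic POD8 (6.25), heart control (2.83), hepatic POD5 (1.55), liver control (1.52) and cardiac allograft (1.44), and the last 4 groups overlapped with their neighbours in that order.

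**Figure D1:**
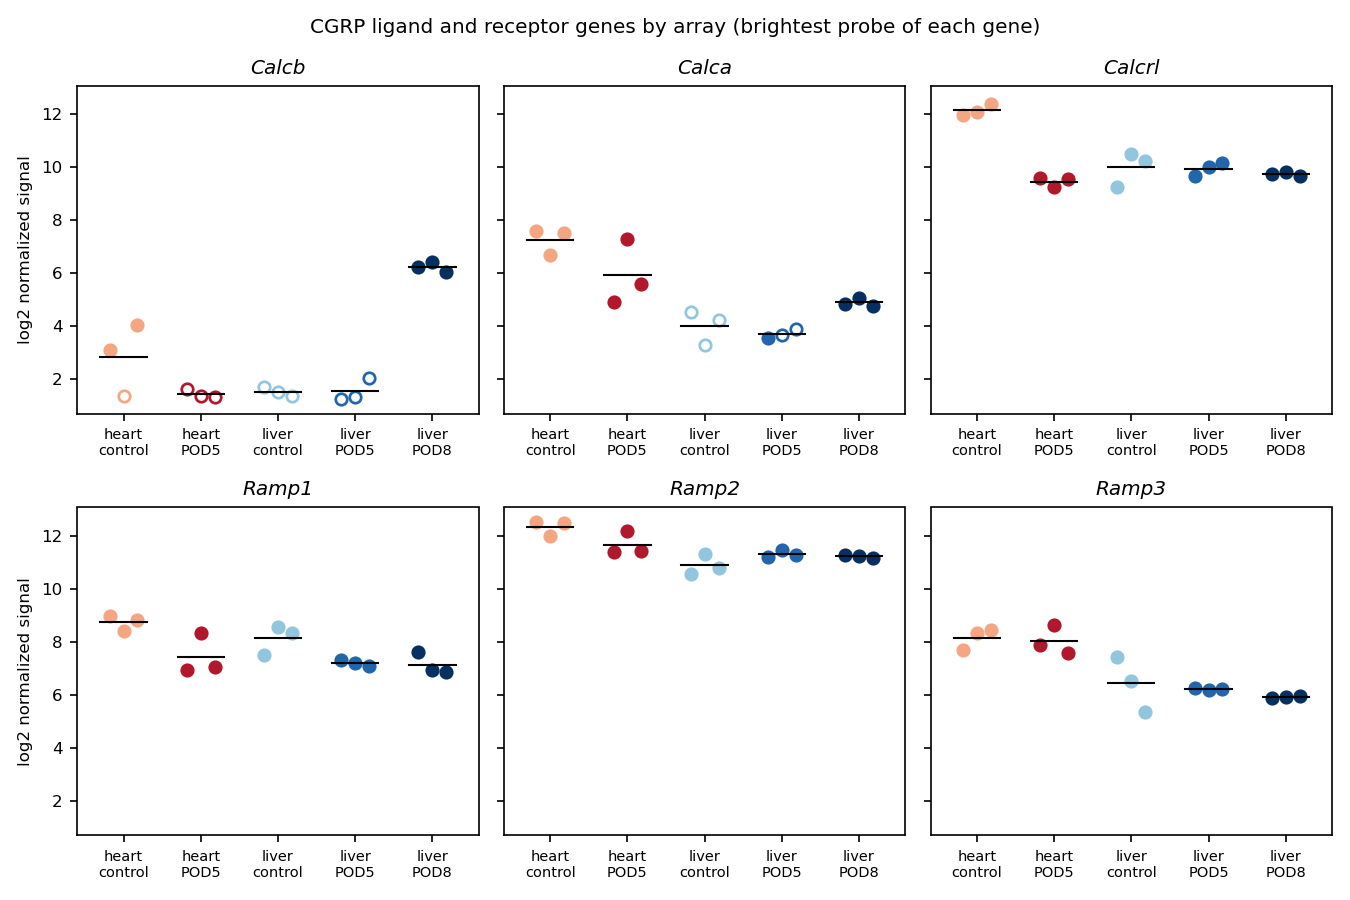
Log2 normalized signal (vertical axis) of the brightest probe of each of the 6 genes on the 15 arrays, by group (horizontal axis). Filled points are well above background, open points are not, and lines are group means. Calcb lies at 6.06 to 6.44 in hepatic allografts at POD8 and at or below 4.05 elsewhere, and Calcrl at 11.99 to 12.40 in heart controls against 9.24 to 9.58 in cardiac allografts.

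Calca, the sister gene, was also highest at POD8 among the liver groups, with smaller differences. Its log2 signals were 4.86, 5.06 and 4.78 at POD8, 3.57, 3.67 and 3.89 at POD5, and 4.52, 3.28 and 4.25 in the liver controls. All 3 POD8 arrays were above background and above every other liver array, whereas 1 of 3 POD5 arrays and 0 of 3 controls were above background. POD8 exceeded POD5 by 1.19 ± 0.14, with no fold given since 2 of the 3 POD5 arrays were not above background, and this was not called (adjusted P = 0.215, Limma). Limma called 0% of all probes in this comparison, with 5299 probes at an unadjusted P under 0.05 (12.9%). Groups were without overlap and higher at POD8 for 9.29% of probes. Against the liver controls Calca was 0.88 ± 0.35 higher at POD8, at least 1.48-fold (adjusted P = 0.224), without overlap, as were 12.9% of probes, and 1.06 higher on the shared slide.

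The second Calca probe, which the array assigns to the other transcript NM_001033954, was mostly not above background in the liver. It read 2.20, 2.12 and 3.65 at POD8 and 1.26, 4.40 and 1.34 at POD5, with 1 array of each above background. Its difference between these groups was 0.32 ± 0.98 (adjusted P = 0.895). Against the liver controls, none of them above background, it was 0.75 ± 0.64 higher at POD8 (adjusted P = 0.531). On the shared slide that difference was -0.03. At such low signals this probe cannot show whether it followed the brighter one.

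In hearts Calca was higher than in livers. The heart controls read 7.59, 6.67 and 7.52 on the brighter probe, all above the liver controls. That difference of 3.24 ± 0.42 was called (adjusted P = 0.00222, at least 7.63-fold), and the second probe differed in the same direction (2.47 ± 0.68, adjusted P = 0.0311, at least 1.03-fold). The cardiac allografts read 4.92, 7.28 and 5.60. Allografts 1 and 3 lay below every control, allograft 2 lay among them, and the difference of -1.33 ± 0.66 was not called (adjusted P = 0.184). The second Calca probe read 2.02, 4.08 and 1.34 in the allografts, none above background, and 4.50, 3.33 and 5.30 in the controls (-1.90 ± 0.87, adjusted P = 0.156). The order for the brighter Calca probe was heart control (7.26), cardiac allograft (5.93), hepatic POD8 (4.90), liver control (4.02) and hepatic POD5 (3.71). Neighbours in that order overlapped except POD8 and liver control.

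Markers of the cells that are known for CGRP were in part at background in the liver. Of 12 measured sensory neuron and nerve fibre markers, 9 were above background on none of the POD8 arrays. Among them were Tac1, the substance P precursor that sensory fibres make together with CGRP, and the sodium channel Scn11a. The other liver groups were alike, with 10 of the 12 above background on no POD5 array and 9 on no liver control. The list's summed signal was 756.1 to 980.3 at POD8 and 933.2 to 1610 at POD5, nearly all of it from Tubb3, a tubulin. Of the 8 neuroendocrine markers, 5 were above background on none of the POD8 arrays and 3 (Chga, Cpe and Pcsk2) on all 3. Between POD8 and POD5 0 of the 12 and 0 of the 8 were called. The neuroendocrine list's summed signal was 164.2 to 200.9 at POD8 and 200.2 to 262.8 at POD5. The presence of nerve fibres and the part of such cells in the Calcb signal were not tested. In the heart 2 of the 12 sensory markers were called lower in allografts, Tac1 (-2.01 ± 0.24, adjusted P = 0.004) and Nefm (-1.21 ± 0.20, adjusted P = 0.00899). The 2 called higher were Tubb3 (4.03 ± 0.15, adjusted P = 0.000432) and the sodium channel Scn10a (2.74 ± 0.42, adjusted P = 0.00809), and the summed signal, mostly Tubb3, was 9265 to 12090 in allografts and 1476 to 2286 in controls. The median difference of the 12 was 0.13, against 0.02 over all probes. Of all probes 16.4% were called lower and 15.6% higher, so both counts are near the background.

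Calcrl, the receptor that CGRP and adrenomedullin share, was lower in cardiac allografts. The heart controls read 11.99, 12.08 and 12.40 and the cardiac allografts 9.58, 9.24 and 9.54. The groups were far apart, and the difference of -2.70 ± 0.16 (6.50-fold lower) was called (adjusted P = 0.000807, Limma). The dimmer Calcrl probe read 4.74, 4.77 and 4.93 in controls and 3.19, 3.32 and 3.12 in allografts, of which only the first was above background. It was called too (-1.60 ± 0.10, adjusted P = 0.000985). Of the 6 genes Calcrl was the 1 called by its brightest probe, where 32.0% of all probes were called and 16.4% were called lower.

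In the liver no difference of Calcrl was called. It read 9.26, 10.502 and 10.23 in controls, 9.69, 10.00 and 10.17 at POD5 and 9.74, 9.81 and 9.67 at POD8, and the 3 groups overlapped. The difference from controls was -0.05 (95% interval -0.96 to 0.87, adjusted P = 0.966) at POD5 and -0.26 (-1.12 to 0.60, adjusted P = 0.681) at POD8. Limma called 3.16% and 4.97% of all probes in these 2 comparisons and 0 of the 5 tested members in each. From POD5 to POD8 Calcrl differed by -0.21 (-0.59 to 0.16, adjusted P = 0.569).

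The difference between the organs was tested directly as the allograft change in heart minus that in liver at POD5. For the brighter Calcrl probe it was -2.66 ± 0.42 and was called (adjusted P = 0.00491), where 13.7% of all probes were called and 7.26% in this direction. The dimmer probe did not give the call (-0.87 ± 1.49, adjusted P = 0.726). It scattered widely in the liver controls, at 6.89, 1.37 and 3.21, and the highest value was that of the dimmest array. Organ, donor and recipient strains and the type of surgery differ together in this comparison and cannot be told apart. Between the controls, Calcrl was higher in heart by 2.16 ± 0.35 (4.47-fold, adjusted P = 0.00501) on the brighter probe and by 0.99 ± 1.41 (adjusted P = 0.591) on the dimmer. The order of its group means was heart control (12.16), liver control (10.00), hepatic POD5 (9.95), hepatic POD8 (9.74) and cardiac allograft (9.46). The heart controls stood above all other arrays, the 3 liver groups overlapped, and the cardiac allografts lay just below hepatic POD8.

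Ramp1, which makes Calcrl a CGRP receptor, read 8.98, 8.42 and 8.83 in heart controls and 6.93, 8.34 and 7.05 in cardiac allografts. No allograft reached a control, although allograft 2 came close. The difference on this brighter probe was -1.31 ± 0.42 and was not called (adjusted P = 0.0695), and 25.5% of all probes were lower without overlap. The dimmer Ramp1 probe read 5.15, 4.37 and 5.01 in controls and 1.12, 2.23 and 2.14 in allografts, none of these above background. It was called (-3.01 ± 0.38, adjusted P = 0.00448, at least 2.41-fold lower).

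In the hepatic allografts Ramp1 also averaged less than in controls, without a call. It read 7.49, 8.56 and 8.34 in liver controls, 7.31, 7.18 and 7.09 at POD5 and 7.61, 6.95 and 6.85 at POD8. The POD5 arrays lay below every control (-0.93 ± 0.31, adjusted P = 0.182), as did 18.8% of probes, and at POD8 the first array overlapped with the controls (-0.99 ± 0.36, adjusted P = 0.198). Without liver control 1 the POD5 difference was -1.26 (adjusted P = 0.0406). For the difference between organs the probes parted: -0.37 ± 0.55 (adjusted P = 0.679) on the brighter and -2.52 ± 0.60 (adjusted P = 0.0244) on the dimmer. Between the controls Ramp1 differed by 0.62 (95% interval -0.22 to 1.45, adjusted P = 0.183).

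Ramp2, the partner of Calcrl in the adrenomedullin receptor of vessels, had smaller differences. It read 12.51, 11.99 and 12.47 in heart controls and 11.40, 12.19 and 11.43 in cardiac allografts, where allograft 2 overlapped with the controls (-0.65 ± 0.28, adjusted P = 0.133). In the liver it read 10.58, 11.31 and 10.78 in controls, 11.19, 11.48 and 11.30 at POD5 and 11.27, 11.23 and 11.18 at POD8. Both allograft groups overlapped with liver control 2, and neither difference was called (0.43 ± 0.23, adjusted P = 0.351, and 0.34 ± 0.21, adjusted P = 0.416). The organs' changes differed by -1.08 ± 0.38 (adjusted P = 0.0857), by -1.34 without cardiac allograft 2 (adjusted P = 0.0311) and by -1.29 without liver control 2 (adjusted P = 0.0492). Heart controls were higher than liver controls by 1.43 ± 0.26 (2.70-fold, adjusted P = 0.00673). Calca, Calcrl and Ramp2 were thus the 3 of 6 genes called between controls, all higher in heart, where 48.2% of all probes were called and 25.5% in this direction.

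Ramp3, the third accessory protein, showed no called difference. It read 7.67, 8.32 and 8.45 in heart controls and 7.86, 8.62 and 7.59 in cardiac allografts (-0.12, 95% interval -0.996 to 0.751, adjusted P = 0.821). In the liver it read 7.42, 6.54 and 5.34 in controls, 6.25, 6.17 and 6.21 at POD5 and 5.89, 5.93 and 5.95 at POD8. The allograft arrays lay inside the wide range of the controls. POD8 lay below POD5 without overlap by 0.28 ± 0.08, log2 (adjusted P = 0.303), as did 10.4% of probes. Heart controls exceeded liver controls by 1.72 ± 0.57 without overlap (adjusted P = 0.0551), as for 30.7% of probes, and by 2.21 without liver control 1 (adjusted P = 0.0173). From POD5 to POD8 none of the tested 5 genes was called. All 4 receptor genes had negative signs, at differences as small as -0.056 for Ramp1 and -0.095 for Ramp2. The Ramp1 sign reversed under 3 of 19 other settings. Calca had a positive sign, and that of Calcb was fixed by the way it was chosen.

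**Figure D2:**
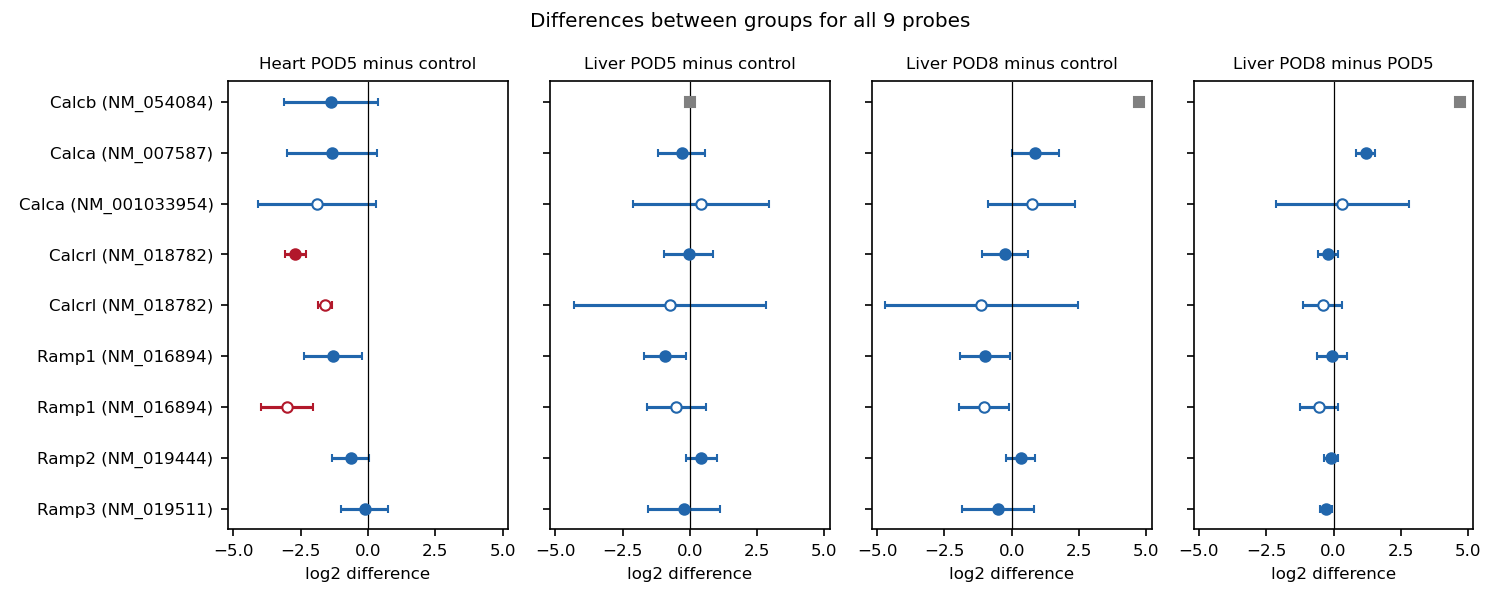
Log2 difference between groups (horizontal axes) for each of the 9 probes (rows), one panel a comparison; bars are 95% intervals from Limma, red marks probes called at an adjusted P under 0.05, open points are the dimmer probes and grey squares are Calcb, not tested in the liver. The 3 called probes are in the heart (both of Calcrl, at -2.70 and -1.60, and the dimmer of Ramp1 at -3.01).

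Cardiac allograft 2 was the highest of the 3 allografts for Calca, Ramp1, Ramp2 and Ramp3. It was the dimmest heart array (75th percentile 394.1, with 56.2% of probes above background), and its summed signal of 6 lymphatic endothelium markers was 6036 against 2891 and 2337 in the other two allografts and 8254 to 10360 in controls. Without it 4 of the 6 genes were called lower: Calcrl, Calca (-2.00, adjusted P = 0.0174), Ramp1 (-1.76, adjusted P = 0.00452) and Ramp2 (-0.91, adjusted P = 0.0216). Over all 41025 probes 13116 (32.0%) were called with every array, and 7547 to 17261 with single arrays left out. The count of 4 belongs to 1 of these settings. The part of this array's features in the results was not tested.

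Endothelial markers moved with Calcrl in the heart. Of 10 endothelial markers, 8 were called lower and 0 higher in cardiac allografts, with a median difference of -1.39 against 0.02 over all probes, of which 16.4% were called lower and 15.6% higher. They included the angiopoietin receptor Tek (-2.08 ± 0.13, adjusted P = 0.00089), endomucin (Emcn, -2.04 ± 0.22, adjusted P = 0.00298), VE-cadherin (Cdh5, -1.76 ± 0.26, adjusted P = 0.00682) and the transcription factor Erg (-2.14 ± 0.29, adjusted P = 0.00539). Esam (0.10) and Egfl7 (0.22) were not called. The list's summed signal was 14170 to 16930 in cardiac allografts and 26370 to 30900 in heart controls, and 9 of the 10 were still above background on all 3 allografts. With each array left out, 5 to 8 of the markers were called lower, the lowest count being without heart control 1 or 3. Of 8 smooth muscle and pericyte markers 5 were lower, as were 5 of 6 lymphatic endothelium markers and 5 of 8 cardiomyocyte markers. So were 5 of 6 cholangiocyte markers, with a median of -1.97. Of 7 liver sinusoidal endothelium markers 3 were lower and 2 higher, and 9 of 9 T cell markers were higher. Lower calls were thus not particular to the endothelial list. In hepatic allografts 0 of the 10 endothelial markers were called at POD5 or POD8, with summed signals of 8484 to 11300 in controls, 10210 to 13810 at POD5 and 11140 to 13450 at POD8. The part of endothelial content in the Calcrl result was not tested.

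**Figure D3:**
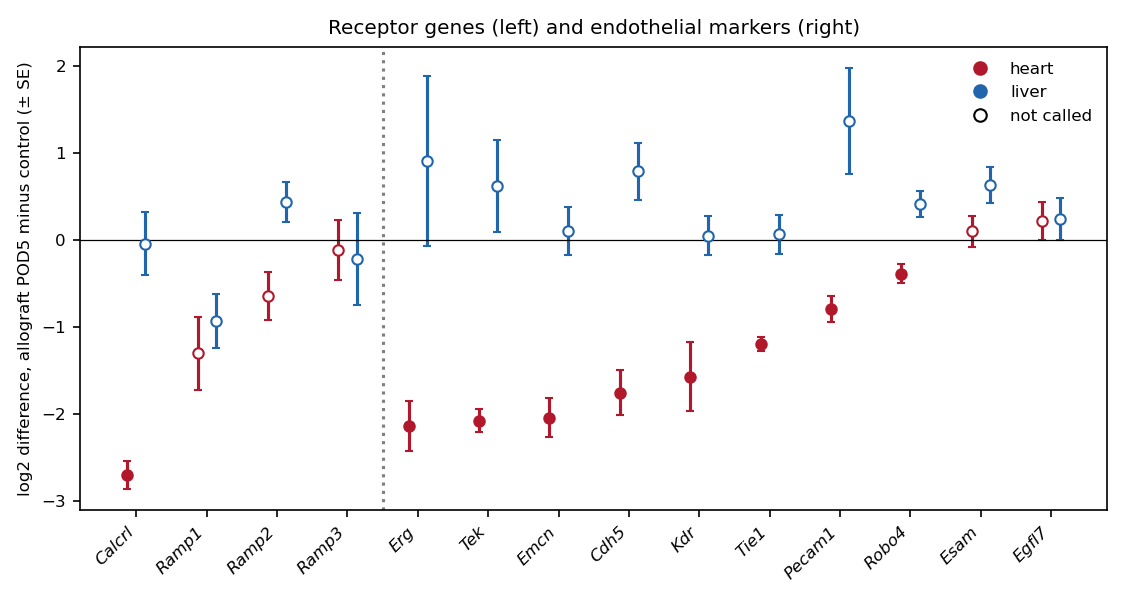
Log2 difference of allografts at POD5 from controls (vertical axis, ± SE) for the receptor genes (left of the dotted line) and 10 endothelial markers (right), in heart (red) and liver (blue); filled points were called. In heart Calcrl (-2.70) lies below all 10 markers, the lowest of which is Erg (-2.14), and in liver no gene shown was called.

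Among the other genes of the pathway, 18 of 20 listed had a probe. In cardiac allografts 1 was called higher and 6 lower, with a median of -0.30. Over all probes 15.6% were called higher, 16.4% lower and 32.0% in either direction. The 7 of 18 called in all are near the background, while the 6 called lower are above the share called lower. The higher one was Grk2 (0.51 ± 0.13, adjusted P = 0.0381), a kinase that desensitizes such receptors. The lower ones included 2 adenylyl cyclases, the enzymes that make cyclic AMP (Adcy5, -1.92 ± 0.18, adjusted P = 0.00216, and Adcy9, -1.52 ± 0.31, adjusted P = 0.0179), and the scavenging receptor Ackr3 (-1.01 ± 0.20, adjusted P = 0.0167). They also included the peptidase Mme, which was above background in 0 of 3 allografts and in 3 of 3 controls (-1.75 ± 0.39, adjusted P = 0.0228), the protein kinase A subunit Prkacb (-0.65 ± 0.17, adjusted P = 0.0399) and the calcitonin receptor Calcr, which was above background on no array. The count of 6 fell to 3, 3, 1 and 2 without cardiac allograft 3 and without heart controls 1, 2 and 3.

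In hepatic allografts 1 of the 18 was called at each time, the adenylyl cyclase Adcy7, higher by 1.99 ± 0.25 at POD5 (adjusted P = 0.027) and by 2.22 ± 0.24 at POD8 (adjusted P = 0.0135). Both comparisons used the same controls. The calls were lost, at differences of 1.92 to 2.30, with slide as a random block at POD5 (adjusted P = 0.0567), with slide as a fixed block at POD8 (adjusted P = 0.107) and without any 1 of the allograft arrays (adjusted P from 0.0665 to 0.128), and at POD5 also without liver control 2 or 3 (adjusted P = 0.0651 and 0.0546). Over all probes 3.16% were called at POD5 and 4.97% at POD8, so 1 of 18 at each time is near the background. Between POD8 and POD5 0 of 18 were called, as were 0% of all probes. Adrenomedullin (Adm), the ligand of the RAMP2 and RAMP3 receptors, averaged 8.21 in cardiac allografts and 8.50 in heart controls, and 6.63, 7.29 and 6.81 in liver controls, POD5 and POD8. Crcp, which couples the receptor to its G protein, averaged 10.04 to 10.36 in the 5 groups. Neither was called in an allograft comparison.

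Of 14 genes known to respond to cyclic AMP, 4 were called higher and 0 lower in cardiac allografts, the early response genes Fos (0.69 ± 0.17, adjusted P = 0.0312), Fosb (0.79 ± 0.16, adjusted P = 0.0176) and Junb (0.52 ± 0.11, adjusted P = 0.0207) and the phosphodiesterase Pde4b (0.55 ± 0.15, adjusted P = 0.0397). Over all probes 15.6% were called higher and 32.0% in either direction, so the 4 of 14 called in all are near the background. The median of the 14 was 0.08, against 0.02 over all probes, and the count fell to 0 without cardiac allograft 3 or heart control 1 or 2, to 2 without heart control 3 or with scaling to the 75th percentile, and to 0 with 1 fit of all 5 groups. In hepatic allografts 0 were called at POD5 and 1 at POD8, the nuclear receptor Nr4a2 (2.78 ± 0.42 above controls, adjusted P = 0.0324, and 0.138 with slide as a fixed block), and 0 between POD8 and POD5. The Nr4a2 call was lost without any 1 of the POD8 arrays or without liver control 2 (adjusted P from 0.0866 to 0.145). In hepatic allografts 3.16% of all probes were called at POD5 and 4.97% at POD8, so these counts of the 14 are near the background. The 14 genes respond to many other signals as well.

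Over the 9 liver arrays the genes with the profile most like that of Calcb were Ppbp (r = 0.971), Penk (0.950), Hivep1 (0.939), Csf2 (0.933) and Ccl1 (0.931), by Pearson's r of the log2 signals among 15298 genes. These arrays fall into 3 groups of 3, so r mainly describes the step at POD8, and no P-value is given. Ppbp, a platelet chemokine, read 8.26 to 8.75 at POD8 against 6.60 to 7.11 at POD5 and 6.93 to 7.05 in controls. Penk, the precursor of the enkephalin neuropeptides, read 6.30 to 6.53 at POD8 against 4.01 to 4.80 and 3.23 to 4.29. Csf2 (GM-CSF) and the T cell chemokine Ccl1 were above background on 0 of the 6 other liver arrays and on 2 and 3 of the 3 POD8 arrays.

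Among the members the r with Calcb in the liver was 0.83 for Calca, 0.21 for Ramp2, -0.32 for Calcrl, -0.31 for Ramp3 and -0.46 for Ramp1. Over all 15 arrays the leading genes were others, Ngp (0.788), Ube2u (0.778), Mertk (0.771), Cd22 (0.717) and Esm1 (0.715), and the r of Calca fell to 0.13. The heart arrays set these lists apart: Csf2 and Ccl1 were above background on all 3 cardiac allografts, at 4.83 to 7.21 and 6.67 to 8.32, where Calcb was above background on none.

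**Figure D4:**
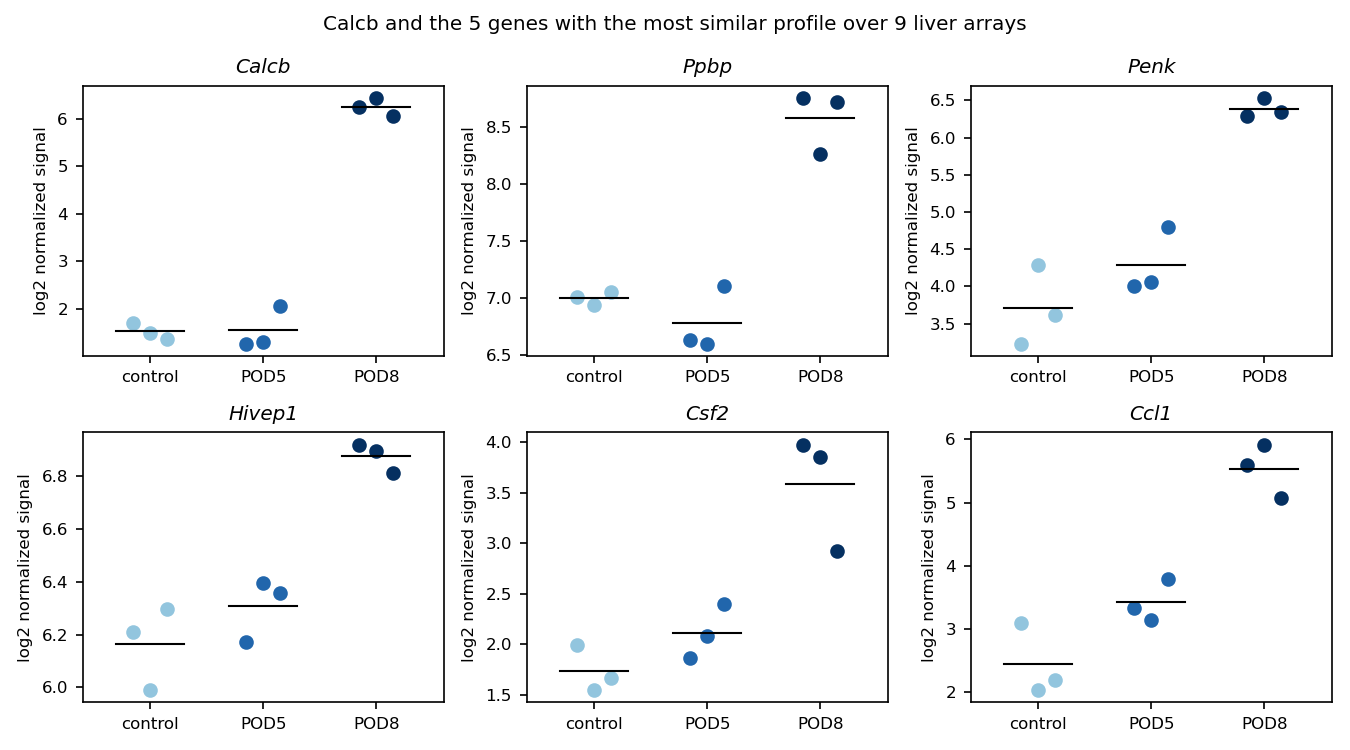
Log2 normalized signal (vertical axes, a scale for each gene) of Calcb and the 5 genes most like it over 9 liver arrays, by group (horizontal axis); points are arrays and lines are group means. In every panel the 3 POD8 arrays lie above the other 6, for Calcb at 6.06 to 6.44.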

How the data were processed

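RNA of 15 grafts or controls was hybridised to one-colour Agilent mouse arrays. The authors deposited each array's scanner output (Feature Extraction 10.5.1.1, annotated to mm9), whose processed signal is a background-subtracted intensity that can be used without further correction. In the study, signals were natural-log transformed and quantile normalized.

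Here spots with an outlier flag were left out, log2 was taken, replicate spots were averaged to 1 value a probe, and all 15 arrays were brought to 1 distribution by quantile normalization. Probes were named through the array's transcript accession and RefSeq (GRCm38.p6), which named 26690 of 41174 (64.8%). A gene was summarised by the probe with the highest mean signal. Limma 3.58.1 was fitted to the arrays of each comparison in R 4.3.3, with Benjamini-Hochberg adjustment over all probes, and was tested on simulated data. A probe counted as above background where at least 0.5 of its spots did. The number of arrays limits the precision.

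Members and lists were chosen with earlier results of these data known. The named genes were all probes of the members, listed partners where called or needed beside a member, and the 5 genes most like Calcb among probes above background on at least 3 arrays. Alternatives covered normalization, background correction (normexp, offset 50), dim probes, flagged spots, the samples fitted, the variance prior, slide and replicate as blocks, the methods' t-test and standardized fold change (bin size 1000), and each array left out. The block for slide within POD8 against control was chosen after seeing the data. Files held no mean spot signal, so normexp used the median.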

Additional observations from a re-analysis of the deposited data

Results flagged for a closer look

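The allograft change of Calcrl at POD5 differed between heart and liver by -2.66 on the log2 scale in the Limma test of that difference, lower in heart, on the brighter probe, while the dimmer probe gave -0.87 and no call. The dimmer probe of Ramp1 differed in the same way by -2.52, while its brighter probe gave -0.37 and no call. Slide and group cannot be told apart for the heart part or the liver part of these differences. Hepatic allografts at POD5 and liver controls shared no slide.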

How the results depend on the processing

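Of 679 results of the members under other settings, 624 kept their direction and their side of the threshold, 10 lost a call, 22 gained one, 15 reversed and 8 untested values of Calcb moved. The causes were not tested. The called members in the heart numbered 1, and 2 with scaling to the 75th percentile, with normexp, after a filter on dim probes and in 1 fit of all 5 groups, where Ramp1 joined Calcrl (adjusted P from 0.0217 to 0.0416). They numbered 0 with the methods' t-test and with the standardized fold change, both after Bonferroni adjustment, and 1 to 4 with each array left out. In hepatic allografts at POD5 they numbered 0, and 0 to 1 with each array left out. For the difference between organs they numbered 1, 2 with 1 fit of all 5 groups, and 1 to 2 with each array left out. Between controls they numbered 3, 5 with 1 fit of all 5 groups and 0 with both Bonferroni tests.

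Of the members, 15 differences reversed, none of them called. Calca in hepatic allografts at POD5 was 0.13 with normexp and 0.43 on its other probe. With scaling to the 75th percentile Calcb between controls, below background in liver, was -0.23. The listed partner Calcr, which is not a member and was below background on all arrays, reversed from a call with that scaling. Calcr went from -0.85 to 0.91 between organs and from 0.85 to -0.79 between controls. With each array left out, Ramp3 in cardiac allografts ranged from -0.42 to 0.10, and in hepatic allografts at POD5 Calcrl from -0.42 to 0.21 and Ramp3 from -0.77 to 0.27. Ramp1 between POD8 and POD5 ranged from -0.294 to 0.087, and Ramp3 between organs from -0.39 to 0.65. Scaling to the 75th percentile moved the median of all probes from 0.02 to 0.46 in heart, from -0.07 to -0.37 and from -0.08 to -0.46 in liver at POD5 and POD8, and from -0.07 to -0.76 between controls. Calcb at POD8 was 3.73 above controls with that scaling.

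Replicate numbers did not pair the samples (correlation of deviations -0.12 to 0.16). With the replicate block the member counts were 1, 0, 0, 0, 1 and 3, as without it, and the adjusted P of Calcrl in heart was 0.016. Calls of all probes between POD8 and POD5 were 0 in Limma, 12 with 1 fit of all 5 groups, 3 with the methods' t-test and Benjamini-Hochberg adjustment and 213 with the standardized fold change. In hepatic allografts at POD5 they were 1301, 573 with slide as a random block and 28 without POD5 array 2, and at POD8 2046, 0 with slide as a fixed block and 300 without POD8 array 1. With the replicate block both were 0. In heart they were 13116, 21196 with scaling to the 75th percentile and 7547 without heart control 3. Of 1089 results of called genes in the partner, cAMP response and endothelial lists and of Tac1, 792 kept the call, 295 lost it and 2 reversed. Calls of the other marker lists were not run under these settings. With 3 arrays a group and Calcb at background in most of them, its lower levels have no order.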
